A study of Mus musculus with 24 samples.

Results

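Transcripts of 8 genes described for the macrophages of the brain's borders were followed through 24 RNA sequencing libraries of mouse glia. They were Mrc1, Cd163, Stab1, Lyve1, Pf4, F13a1, Cbr2 and Ms4a7. The genes were taken by name through their Ensembl identifiers. All 8 were found among the 53700 identifiers counted in microglia preparations and among the 55487 counted in astrocyte preparations. The groups held 3 libraries each: for each cell type, Serpine2-/- mice given LPS (lipopolysaccharide, a bacterial cell wall component that activates innate immune cells), controls given LPS, Serpine2-/- mice given saline and controls given saline. All mice were adult, and controls were littermates that kept at least 1 working Serpine2 allele, so that heterozygous and wild-type animals may share that group. Dose, time after injection and exact age are not given in the sources used here. After perfusion with buffered saline, microglia came from whole brain (dounced, then spun through Percoll) and astrocytes from cerebral cortex (digested with papain). Both were then caught on antibody-coated dishes, so the comparison of cell types is also one of brain region and preparation.

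Border macrophages live in the meninges, around blood vessels and in the choroid plexus, outside the neural tissue proper where microglia live. They share the general macrophage genes with microglia. Scavenger and lectin receptors, among them Mrc1, Cd163, Stab1 and Lyve1, and genes such as Pf4, F13a1, Cbr2 and Ms4a7 are described for them. Which cells carried each gene in these preparations, microglia among them, was not tested. Border macrophages take up debris and plasma proteins at the vessel wall and answer signals from the blood. Several of these genes are also used elsewhere: Pf4 by platelets, F13a1 by monocytes, Lyve1 by lymphatic endothelium and Stab1 by sinusoidal and lymphatic endothelium.

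Gene counts ran from 4506142 to 13621776 per microglia library and from 10944765 to 25135252 per astrocyte library. Serpine2 itself was at most 22.2 CPM in any knockout library and at least 46.4 CPM in any control library. The microglia libraries carried Csf1r, the receptor of macrophage growth factors, at 644 to 1426 CPM after LPS and at 853 to 1907 CPM after saline. CPM here are gene counts per library size, the sizes scaled between the libraries of a cell type by TMM. They also held summed neuronal marker levels of 2258 to 2554 CPM after LPS and 2186 to 3412 CPM after saline. The summed level of 10 astrocyte markers was 15387 to 22336 CPM after LPS and 15884 to 19828 CPM after saline in astrocyte preparations, and Csf1r was found there too, at 28.3 to 109 CPM after LPS and 27.3 to 55.5 CPM after saline. The microglia LPS control replicate 1 library, labelled female, had the sex-linked transcripts of a male. Among astrocyte libraries, replicate 2 of LPS knockout and of LPS control stood apart, with 16.3% and 15.9% of reads outside annotated genes against 18.9% to 21.1% in the other 10. In whole preparations like these, fewer cells of a type and less RNA per cell cannot be told apart.

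On GRCm38 the receptors lie apart in the genome. Mrc1 (ENSMUSG00000026712), the mannose receptor CD206, is at chr2:14229392-14332057 on the plus strand and hosts the microRNA gene Mir511. Cd163 (ENSMUSG00000008845), the receptor for haemoglobin bound to haptoglobin, is at chr6:124304656-124330527 on the plus strand. Stab1 (ENSMUSG00000042286), the scavenger receptor stabilin-1, is at chr14:31139013-31168641 on the minus strand and overlaps the plus-strand gene Nt5dc2. Lyve1 (ENSMUSG00000030787), a hyaluronan receptor, is at chr7:110850607-110863239 on the minus strand. Of the secreted products, Pf4 (ENSMUSG00000029373), the chemokine CXCL4, is at chr5:90772435-90773383 on the plus strand. F13a1 (ENSMUSG00000039109), the A subunit of coagulation factor XIII, is at chr13:36867178-37050244 on the minus strand, with 2 antisense genes inside its span. Cbr2 (ENSMUSG00000025150), a carbonyl reductase, is at chr11:120729489-120732114 on the minus strand. Ms4a7 (ENSMUSG00000024672), a membrane protein of the MS4A family, is at chr19:11321039-11336146 on the minus strand. No strand setting was stated for the counting, so reads of Stab1 and Nt5dc2, or of F13a1 and its antisense genes, cannot be told apart where they overlap.

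The 250 bases before the transcription start are shown for Stab1 and Cd163, the members that passed the test after LPS in astrocyte preparations. They come from RefSeq on GRCm38.p6, at chr14:31168642-31168891 on the minus strand for Stab1 and at chr6:124304401-124304650 on the plus strand for Cd163. Capitals mark GAGGAA or its complement TTCCTC, the core bound by PU.1, a transcription factor of myeloid cells.
Stab1: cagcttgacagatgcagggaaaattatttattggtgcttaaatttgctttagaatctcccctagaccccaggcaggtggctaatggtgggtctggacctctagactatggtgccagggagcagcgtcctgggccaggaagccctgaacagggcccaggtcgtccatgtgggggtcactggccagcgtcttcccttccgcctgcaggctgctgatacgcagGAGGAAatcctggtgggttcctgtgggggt
Cd163: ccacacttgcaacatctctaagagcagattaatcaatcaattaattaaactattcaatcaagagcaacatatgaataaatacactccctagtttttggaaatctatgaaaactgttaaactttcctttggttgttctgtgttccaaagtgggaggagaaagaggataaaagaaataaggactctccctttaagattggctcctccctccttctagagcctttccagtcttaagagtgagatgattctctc
The Stab1 window held 1 copy of GAGGAA and the Cd163 window none. Promoter entries matched 7 of the 8 members, all but Lyve1. GAGGAA or TTCCTC was found 3 times before Mrc1 and once each before Pf4, Cbr2 and 1 of the 2 F13a1 starts, and it was absent from the windows of Ms4a7. Of all 32851 promoter windows of this length, 23.3% held it. The core TGCTGA bound by the MAF transcription factors, or TCAGCA on the other strand, was present once before Stab1, without overlap with GAGGAA, and in none of the other members' windows, against 16.1% of all windows. The interferon-stimulated response element, searched on both strands, was in no member's window and in 2.98% of all windows.

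In microglia preparations all 8 genes were detected in every library, at levels under those of the macrophage gene Csf1r. Per kilobase of exon, and as means over all 12 libraries, Pf4 averaged 9.91 ± 4.64 CPM per kb, Stab1 9.54 ± 2.85 and Cbr2 8.62 ± 4.48 (SD, n = 12). They were followed by Mrc1 at 3.84 ± 1.59, F13a1 at 2.21 ± 1.68, Lyve1 at 1.58 ± 1.07, Cd163 at 1.03 ± 0.454 and Ms4a7 at 0.582 ± 0.321 CPM per kb (SD, n = 12). The mean ± SD ranges of every pair of neighbours in this order overlapped. On the same scale Csf1r averaged 206 ± 75.6, Tmem119 141 ± 90.6 and P2ry12 72.8 ± 62.7 CPM per kb (SD, n = 12), the last 2 being microglial identity genes. P2ry12 was as low as 9.22 CPM per kb, in an LPS knockout library, so its range overlapped those of Stab1 and Pf4. Stab1 reached 12.95 and Pf4 23.0 CPM per kb, both in saline libraries. P2ry12 averaged 15.3 ± 5.31 CPM per kb in LPS knockouts and 22.4 ± 9.25 in LPS controls (SD, n = 3 each). Each member was above the 95th percentile of 1107 olfactory receptor genes, a class silent in most tissues and chosen after the data had been seen, in 12 of 12 microglia libraries.

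In astrocyte preparations the same genes were close to the limit of counting. Their means were 0.607 ± 0.622 CPM per kb for Pf4, 0.398 ± 0.451 for Stab1, 0.359 ± 0.223 for Mrc1 and 0.304 ± 0.312 for Cbr2 (SD, n = 12). Lyve1 averaged 0.216 ± 0.315, F13a1 0.182 ± 0.166, Cd163 0.0784 ± 0.104 and Ms4a7 0.0543 ± 0.0669 CPM per kb (SD, n = 12), and again no neighbours were separated by their mean ± SD ranges. Over all 12 libraries Stab1 had 866 counts and Mrc1 503, while Cd163 had 88, Cbr2 86 and Ms4a7 54. Mrc1, F13a1 and Stab1 exceeded the olfactory receptor percentile in 12 of 12 libraries, Pf4 in 10, Lyve1 in 9, Cd163 and Cbr2 in 8 and Ms4a7 in 7. Cd163 was at 0 in 4 libraries, Cbr2 in 4, Ms4a7 in 5, Lyve1 in 3 and Pf4 in 2.

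**Figure D1:**
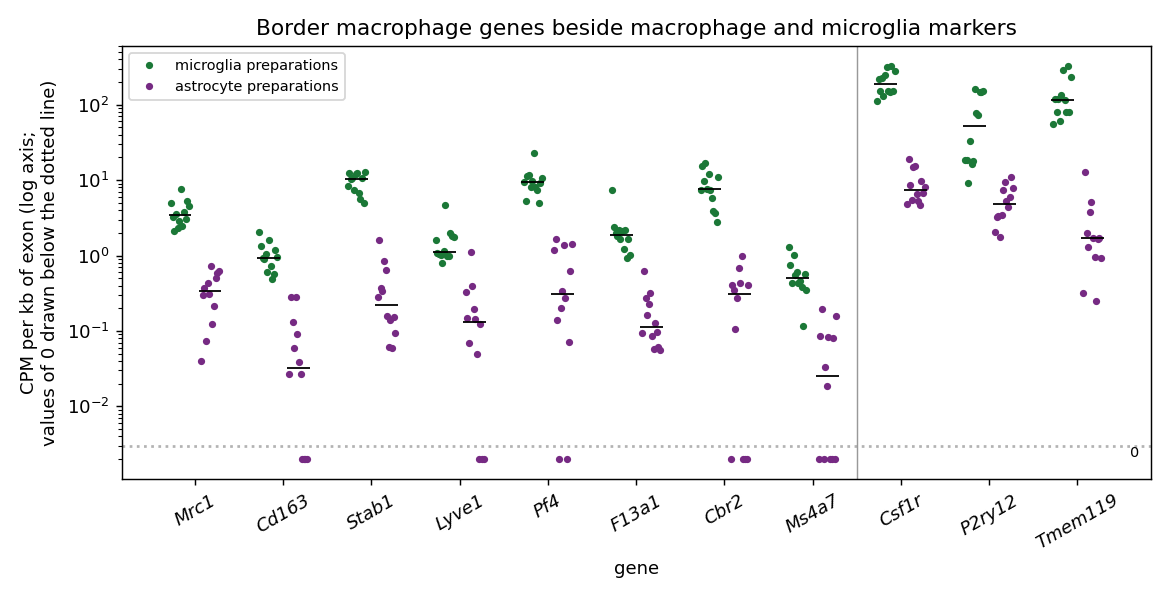
CPM per kilobase of exon on a log axis for each of the 8 genes and for Csf1r, P2ry12 and Tmem119, with microglia libraries left of astrocyte libraries (12 points each, bar at the median, scaled within each cell type). In microglia libraries every member lies under every Csf1r value, and in astrocyte libraries 5 members include values of 0.

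Set against astrocytes in saline controls, microglia held more Cd163, Stab1, Lyve1, Cbr2 and F13a1, while Mrc1, Pf4 and Ms4a7 did not pass in the fit of all libraries. For this test all 24 libraries were scaled together, which put the scaling factors of microglia between 1.65 and 1.82 and those of astrocytes at 0.6998 or lower. On that scale Stab1 averaged 57.6 ± 23.1 CPM in microglia and 2.23 ± 1.05 CPM in astrocytes (SD, n = 3 each), a log2 difference of 4.67 ± 0.58 (SE). The log2 differences of Lyve1, Cbr2 and F13a1 were 3.64, 3.64 and 2.24. Cd163 had no count in the 3 astrocyte libraries and was at least 34.3-fold higher in microglia, taking 3 counts over the group as the floor. Mrc1 and Pf4 were called with DESeq2 and with no filter on low counts, Mrc1 also in the fit of only the groups compared and Pf4 without astrocyte saline control replicate 3, and F13a1 lost its call with the replicate block (edgeR adjusted p = 0.0539). Mrc1 differed by 1.08 with a 95% interval of -0.18 to 2.35 and Pf4 by 1.73 with an interval of -0.09 to 3.56. By edgeR 5 of 8 members were called, all of them higher in microglia, where 55.7% of all 24607 genes were called and 32.1% were higher. The median log2 difference was 2.94 over the members and 0.38 over all genes. Cd163, Lyve1 and Cbr2 had 0, 7 and 10 counts over the 3 astrocyte saline controls and passed the filter through libraries where they were higher. Their calls, the count of 5 and this median are therefore descriptions. Cell type, brain region and preparation cannot be told apart here.

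LPS left no member of the set past the test in microglia preparations. Averaged over genotypes, 0 of 8 passed an adjusted p of 0.05 in edgeR's quasi-likelihood test, where 2.7% of 22230 genes did. At an unadjusted p under 0.05 there were 4 members and 2848 genes. The median log2 fold change was 0.25 over the members and -0.03 over all genes. Within knockouts 0 of 8 passed, against 1.14% of genes, and within controls 0 of 8, against 0.576%, with 1 member at an unadjusted p under 0.05 in each, beside 1691 and 1619 genes.

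Among the scavenger and lectin receptors, Stab1 had the highest level per kilobase. It had 85.0, 127 and 107 CPM in LPS knockout and 109, 76.6 and 125 CPM in LPS control libraries, against 129, 69.0 and 57.3 CPM in saline knockout and 109, 51.2 and 133 CPM in saline control libraries. The groups overlapped throughout, and the log2 fold change averaged over genotypes was 0.20 ± 0.24 (SE), with a 95% interval of -0.32 to 0.72. Mrc1 had 31.8, 20.9 and 13.6 CPM in LPS knockout and 23.0, 14.95 and 18.2 CPM in LPS control libraries, against 48.8, 15.6 and 23.9 CPM in saline knockout and 19.5, 34.1 and 28.8 CPM in saline control libraries. Saline knockout replicate 1 was the highest, and the log2 change of -0.48 ± 0.28 (SE) had an edgeR adjusted p of 0.499; without that library it was -0.19. Cd163 ranged from 3.32 to 11.1 CPM after LPS and from 2.63 to 8.65 CPM after saline, with a log2 fold change of 0.29 and an interval of -0.37 to 0.95.

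Lyve1 was the member with the lowest fold change. It had 4.75, 3.17 and 3.09 CPM in LPS knockout and 2.93, 2.34 and 3.32 CPM in LPS control libraries, against 13.8, 2.85 and 2.86 CPM in saline knockout and 5.85, 5.29 and 5.16 CPM in saline control libraries. In controls the LPS and saline libraries did not overlap, but 2 of the 3 saline knockout libraries lay within the LPS range. Averaged over genotypes, Lyve1 had a log2 change of -0.85 ± 0.36 (SE), with an edgeR adjusted p of 0.327. It was -0.27 without saline knockout replicate 1, the library with 13.8 CPM.

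Among the secreted products, Pf4 had a log2 fold change of -0.13 with an interval of -0.79 to 0.52, from 3.81 to 8.42 CPM after LPS and from 3.62 to 16.6 CPM after saline. F13a1 had 49.3, 16.1 and 13.5 CPM in LPS knockout and 12.1, 14.9 and 11.2 CPM in LPS control libraries, against 14.2, 8.28 and 14.7 CPM in saline knockout and 6.20, 11.3 and 6.87 CPM in saline control libraries. Most of its LPS libraries were within the saline range or just above it, and 1 was far higher. The log2 change was 0.88 ± 0.30 (SE), with an unadjusted p of 0.0113 and an edgeR adjusted p of 0.198. It was 0.47 without LPS knockout replicate 1.

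Cbr2 and Ms4a7 had fold changes of the same size. Cbr2 had 9.87, 20.3 and 12.9 CPM in LPS knockout and 22.1, 10.1 and 16.0 CPM in LPS control libraries, against 9.69, 7.73 and 5.15 CPM in saline knockout and 4.82, 3.75 and 14.8 CPM in saline control libraries. All LPS knockout libraries lay above the saline knockout ones, while in controls the highest saline library overlapped the LPS range. For Cbr2 the log2 change was 0.96 ± 0.33 (SE), with an edgeR adjusted p of 0.192, and without saline control replicate 3 it was 1.40 with an edgeR adjusted p of 0.00797. Ms4a7 had 5.87, 3.38 and 1.94 CPM in LPS knockout and 4.51, 2.48 and 2.68 CPM in LPS control libraries, against 1.90, 2.02 and 1.72 CPM in saline knockout and 0.517, 2.56 and 1.54 CPM in saline control libraries, a log2 fold change of 1.02 ± 0.35 (SE; edgeR adjusted p = 0.198). With no filter on low counts F13a1, Cbr2 and Ms4a7 passed, with edgeR adjusted p-values of 0.00154, 0.000664 and 0.0476.

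**Figure D2:**
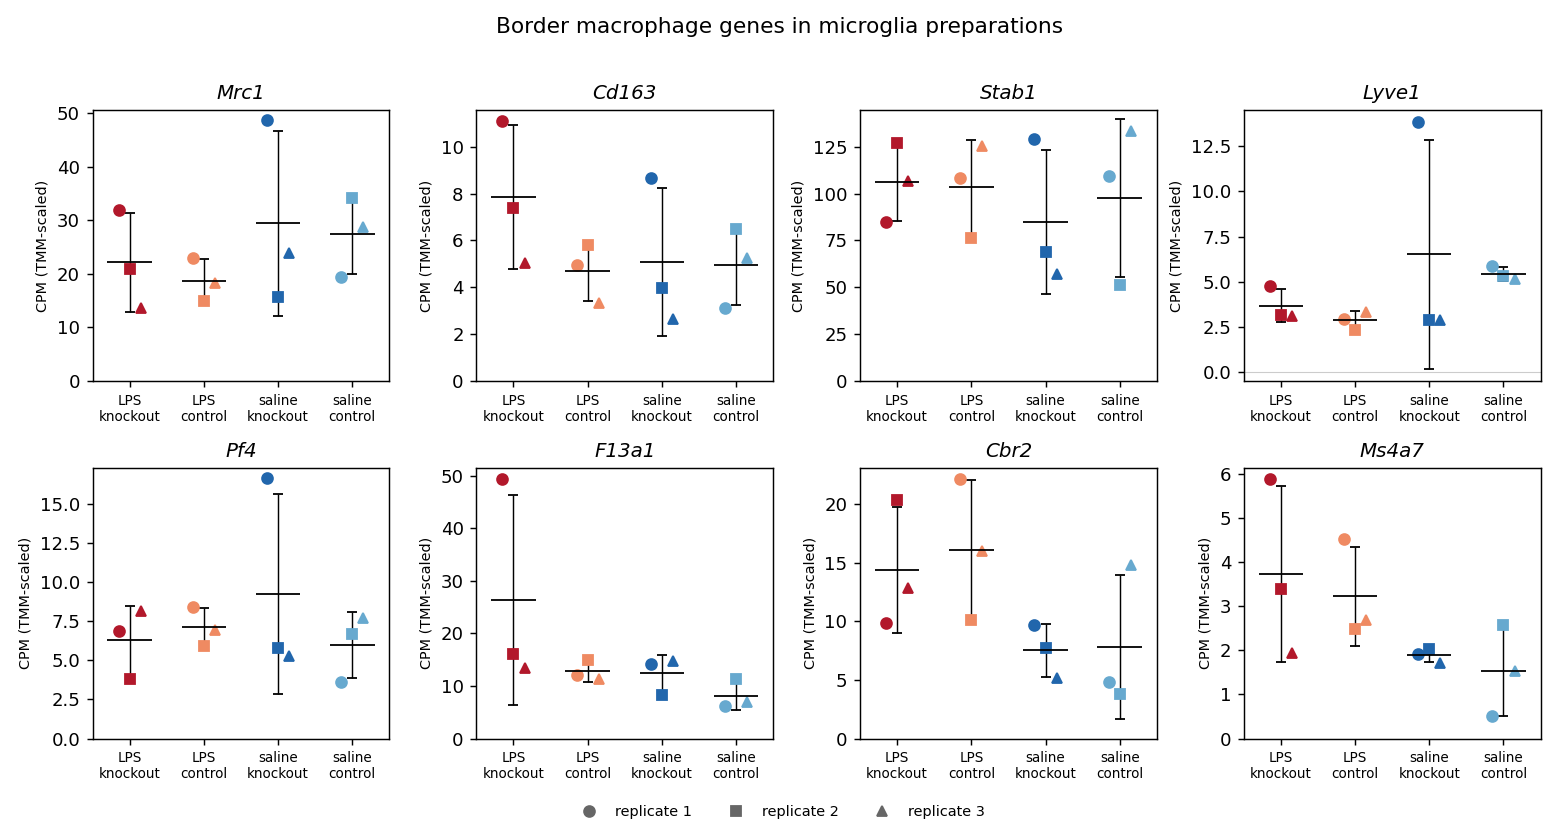
CPM in each microglia library (points, shaped by replicate) for the 8 genes in LPS knockout, LPS control, saline knockout and saline control groups, with the mean (bar) and SD (whiskers), n = 3 each. Single libraries stand out, such as saline knockout replicate 1 for Lyve1 at 13.8 CPM and LPS knockout replicate 1 for F13a1 at 49.3 CPM.

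Other genes described for border macrophages, though not particular to them, moved more than these. In a list of 36 further genes described for border macrophages, 28 were tested in microglia preparations and 12 rose and 3 fell after LPS, averaged over genotypes, with a median log2 fold change of 0.88. The largest increases by fold were those of Wfdc17 (3.84), the sialic acid receptor Siglec1 (3.52), the interferon-induced membrane proteins Ifitm2 (2.95) and Ifitm3 (2.75), Cd38, an enzyme that consumes NAD (2.53), and the matrix protein Tgfbi (2.51). Clec4n, the lectin dectin-2, rose by 2.10, the ferroxidase Cp by 1.96, the Ms4a7 relatives Ms4a6c, Ms4a6d and Ms4a6b by 1.84, 1.81 and 1.12, and Blvrb, a biliverdin reductase, by 1.71. The C-type lectin Mgl2 fell by 2.65, the iron exporter Slc40a1 by 1.19 and the transcription factor Maf by 0.87 on the log2 scale. Of the genes that rose, Ifitm2 and Ifitm3 are general interferon response genes of many cells. The sum of the 36 genes was 888 to 1420 CPM after LPS and 476 to 848 CPM after saline in microglia preparations. In astrocyte preparations, scaled apart, it was 2224 to 3550 CPM after LPS and 2339 to 3401 CPM after saline. Such a sum is carried by its highest genes and is no measure of border macrophages here. In each astrocyte group 5 to 11 of the 36 genes were at 0 in all 3 libraries. The defining gene Folr2 was nearly absent, at 0.0882 to 0.634 CPM after LPS and 0 to 0.543 CPM after saline, and Clec10a ranged from 0.964 to 3.26 CPM after LPS and from 1.21 to 4.50 CPM after saline.

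Markers of other cells changed beside the members. Of 12 microglial identity genes 8 fell after LPS and none rose, and their summed level was 1156 to 2295 CPM after LPS against 2025 to 4866 CPM after saline. The sum of 12 genes shared by all macrophages was 3025 to 6092 CPM after LPS and 2408 to 5863 CPM after saline, with 2 of 12 higher. Of 11 monocyte genes tested 3 rose, and the sum of all 12 on the list was 262 to 510 CPM after LPS and 227 to 318 CPM after saline, highest in LPS knockout replicate 1. The part of these cells in the values of F13a1, Cbr2 and Ms4a7 was not tested. Of 6 platelet genes tested, 2 fell. The platelet gene Gp9 had 0 to 2.25 CPM after LPS and 2.39 to 9.30 CPM after saline. It passed the filter through its saline libraries, so this count is a description. The platelet chemokine Ppbp was at 0 in 4 of 6 LPS and 3 of 6 saline libraries, and the sum of 11 such genes was 12.7 to 24.7 CPM after LPS and 25.9 to 40.1 CPM after saline, without overlap; their part in the values of Pf4 was not tested.

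Loss of Serpine2 moved no member past the test in microglia preparations. None of the 8 members passed within saline (0% of genes did), within LPS (0%) or averaged over injections (0.0045%). At an unadjusted p under 0.05 there were 0, 1 and 1 members and 351, 335 and 449 genes. By edgeR the log2 differences, knockout minus control, ran from -0.21 to 1.05 over the 24 member values, with 95% intervals reaching from -1.14 to 1.94, and 22 of the 24 intervals included 0. The other 2 were those of F13a1. It averaged 26.3 ± 20.0 CPM in LPS knockouts and 12.7 ± 1.91 CPM in LPS controls (SD, n = 3 each), a log2 difference of 1.05 with an interval of 0.15 to 1.94. Averaged over injections its difference was 0.83 ± 0.30 (SE; unadjusted p = 0.0159, edgeR adjusted p = 1.00). Without LPS knockout replicate 1 these differences were 0.22 in LPS and 0.43 averaged. The genotype difference in the LPS response passed for 0 of 8 members and for 0% of genes, and 0 members and 251 genes had an unadjusted p under 0.05 there.

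Within groups, single libraries were above their group mean for between 1 and 8 of the 8 members, and most libraries were mixed. In microglia, saline knockout replicate 1 was above its group mean for 8 of 8 members and was the highest of all 12 libraries for Mrc1, Pf4 and Lyve1. LPS control replicate 1 was above its group mean for 7 of 8. LPS knockout replicate 1 was above it for 6 of 8 and was the highest of all for Cd163, F13a1 and Ms4a7. That library also held 70.2 CPM of Chil3 and 11.1 CPM of Ccr2, both made by monocytes, against 19.7 and 6.70 CPM of Chil3 and 2.33 and 1.68 CPM of Ccr2 in its group. Of the monocyte genes Plac8 and Ly6c2, Plac8 was also highest there, at 21.5 CPM against 7.82 and 14.6 CPM. Ly6c2 was not, at 9.74 CPM against 7.61 and 12.3 CPM. The part of monocytes in the members' values was not tested. Chil3 and Ccr2 did not stand out in saline knockout replicate 1, with 39.8 CPM of Chil3 and 6.23 CPM of Ccr2 against 30.6 and 45.0 CPM and 4.23 and 7.21 CPM in its group. The replicates numbered 1 named above were each the highest of their group for Ttr, a choroid plexus gene chosen after its values were seen. Ttr had 97.4 CPM against 63.6 and 62.2 CPM in saline knockouts and 114 against 66.4 and 47.5 CPM in LPS knockouts. In LPS controls it had 75.3 against 57.8 and 63.1 CPM. The neuronal gene Snap25 was also highest in both knockout libraries, at 497 and 564 CPM. The part of choroid plexus tissue in the members' values was not tested. In astrocytes, LPS knockout replicate 2 was above its group mean for 7 of 8 members and the highest of all 12 libraries for Pf4, Cd163, F13a1 and Stab1, and saline knockout replicate 1 was also above its group mean for 7 of 8.

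**Figure D3:**
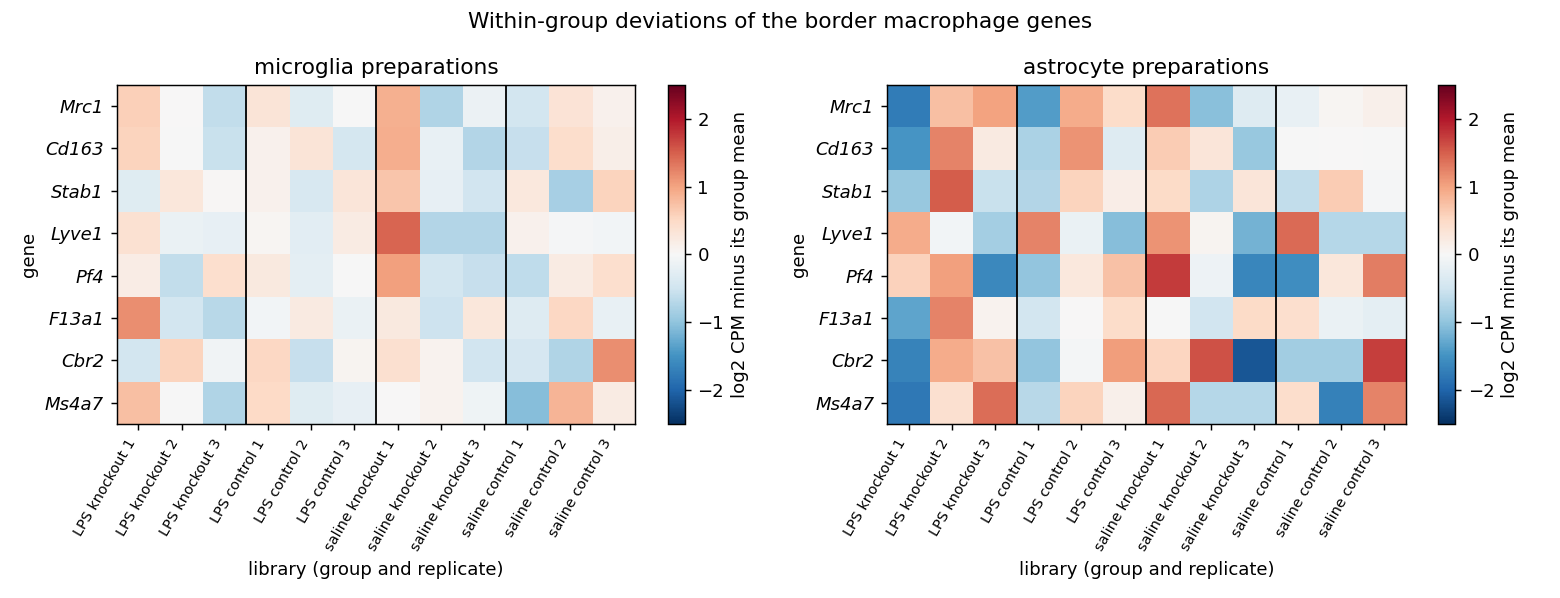
Log2 CPM of each gene minus its group mean, for 12 microglia libraries (left) and 12 astrocyte libraries (right), ordered LPS knockout, LPS control, saline knockout and saline control. The column of microglia saline knockout replicate 1 is above 0 for all 8 genes, and that of astrocyte LPS knockout replicate 2 for 7 of 8.

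The genes whose log2 CPM followed the mean of the 8 members most closely over the 12 microglia libraries were Lyar (Pearson r = 0.86), Prdx3 (0.82), Ddx58 (0.81), Mrpl45 (0.80) and Mdp1 (0.79), out of 12017 genes averaging at least 5 CPM. With group means subtracted they were Lyar (0.96), Mdp1 (0.93), Fzd4 (0.92), Snapin (0.89) and Rin2 (0.88). Over the 12 astrocyte libraries they were Thap11 (0.91), Gng12 (0.90), Lcp1 (0.89), Tro (0.87) and Arpc1a (0.87) out of 8939 genes, and with group means subtracted Eid1 (0.95), Dusp16 (0.94), Tmem178b (0.94), Scd2 (0.92) and Aspa (0.91). These are descriptions over libraries that share groups and preparation, and no gene of the other border macrophage list was among them.

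In astrocyte preparations Stab1 rose after LPS. Averaged over genotypes, Stab1 and Cd163 passed, 2 of the 7 members tested and both upward, where 4.98% of 18188 genes rose and 6.9% were called in either direction. Ms4a7 did not pass the filter on low counts. The median log2 fold change was 1.78 over the 7 members and 0.01 over all genes. Cd163 entered the test only through its LPS libraries, since its highest saline library had 4 counts, under the minimum count of 10. Lyve1 also entered only through its LPS libraries. It was at most 0.422 CPM after saline, with 11 counts over the saline knockout and 7 over the saline control libraries. Cd163 and Lyve1 had to differ, so the call of Cd163, this count and this median are descriptions and support nothing.

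Stab1 was higher in every LPS library than in any saline library. It had 2.91, 16.5 and 3.87 CPM in LPS knockout and 3.53, 8.77 and 6.67 CPM in LPS control libraries, against 1.63, 0.635 and 1.43 CPM in saline knockout and 0.612, 1.59 and 0.972 CPM in saline control libraries. The log2 fold change was 2.604 ± 0.47 (SE), with a 95% interval of 1.61 to 3.59 and an edgeR adjusted p of 0.00266. Within knockouts it was 2.65 ± 0.66 (edgeR adjusted p = 0.0544) and within controls 2.56 ± 0.66 (edgeR adjusted p = 0.0809). No member passed within a genotype, where 1.56% of genes passed in knockouts and 0.929% in controls, and 2 and 4 members had an unadjusted p under 0.05, beside 2495 and 2192 genes. With the replicate block, Stab1 was called within controls. Without replicate 2 of both LPS groups, a setting chosen after seeing the data, the averaged fold change was 1.86 (edgeR adjusted p = 0.0316).

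Cd163 had 0.147, 1.56 and 0.714 CPM in LPS knockout and 0.330, 1.53 and 0.494 CPM in LPS control libraries, against 0.211, 0.146 and 0 CPM in saline knockout libraries and 0 in all 3 saline control libraries. Its highest saline library lay above its lowest LPS library, both in knockouts. In counts these were 47 and 34 over the LPS groups against 7 and 0 over the saline groups. The fitted log2 fold change averaged over genotypes was 4.76 ± 1.14 (SE; edgeR adjusted p = 0.0206), and its size depends on the prior count because of the zeros. Within controls Cd163 was at least 15.7-fold higher after LPS, with 3 counts over the saline group as the floor (edgeR adjusted p = 0.103). The averaged call was lost without LPS knockout replicate 2 (edgeR adjusted p = 0.0599), without LPS control replicate 2 (0.0715), and without saline control replicate 2 or 3 (0.0542 and 0.0521).

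The other members did not pass in edgeR's test as specified. Lyve1 was called with the replicate block (log2 fold change 3.09, edgeR adjusted p = 0.0360), with DESeq2, with no filter and without saline control replicate 1. Since Lyve1 passed the filter only through its LPS libraries, its calls under the filter and its fold change are descriptions. F13a1 was called with DESeq2 and without LPS knockout replicate 1. F13a1 had 0.625, 4.25 and 1.84 CPM in LPS knockout and 1.08, 1.53 and 2.14 CPM in LPS control libraries, against 0.580, 0.390 and 0.860 CPM in saline knockout and 0.663, 0.410 and 0.378 CPM in saline control libraries, a log2 fold change of 1.78 ± 0.55 (SE; edgeR adjusted p = 0.0586). One LPS knockout library fell within the saline range and the other 5 LPS libraries were above it. Lyve1 ranged from 0.204 to 3.30 CPM after LPS and from 0 to 0.422 CPM after saline, with a log2 fold change of 2.598 ± 0.96 (SE; edgeR adjusted p = 0.124), and its highest value was in LPS control replicate 1. Mrc1 ranged from 0.257 to 2.78 CPM after LPS and from 0.781 to 4.58 CPM after saline, with a log2 fold change of -0.83 ± 0.56 (SE; edgeR adjusted p = 0.450). Pf4 and Cbr2 had fold changes of -0.60 and 0.20, with intervals of -2.73 to 1.53 and -2.15 to 2.54.

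**Figure D4:**
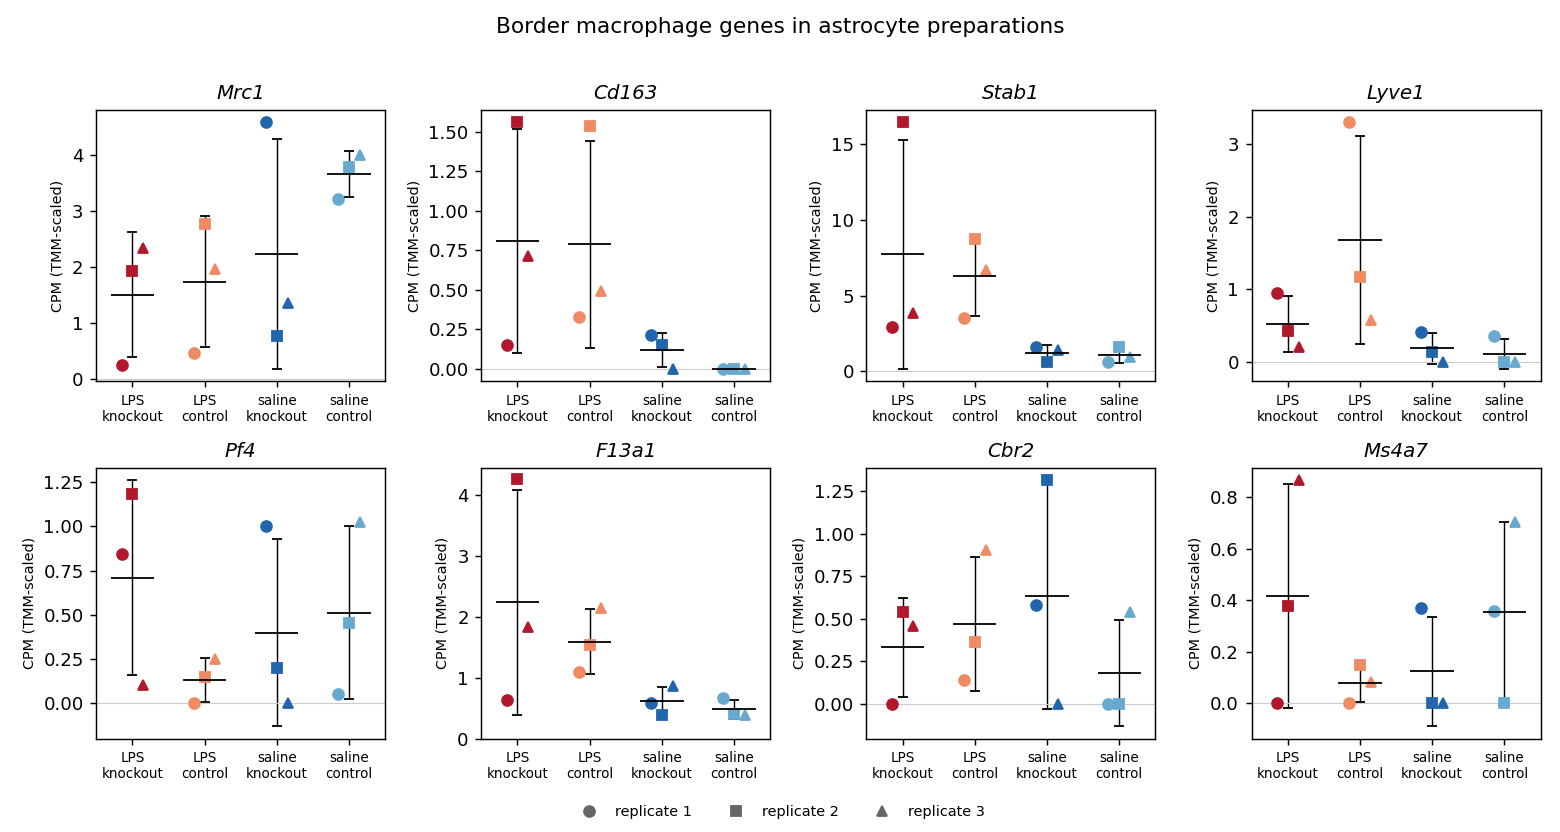
CPM in each astrocyte library (points, shaped by replicate) for the 8 genes in LPS knockout, LPS control, saline knockout and saline control groups, with the mean (bar) and SD (whiskers), n = 3 each. The 6 LPS libraries sit between 2.91 and 16.5 CPM for Stab1, all above the saline libraries, and replicate 2 is the highest LPS library for Stab1 and Cd163 in both genotypes.

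Markers of several other cell types were higher in the same astrocyte libraries. Of the 12 genes shared by all macrophages 7 rose after LPS and none fell, and their sum was 192 to 905 CPM after LPS and 96.7 to 208 CPM after saline. The sum was 200, 905 and 344 CPM in LPS knockout and 192, 611 and 528 CPM in LPS control libraries, highest in replicate 2 of both, as for Stab1 and Cd163. Of 12 microglial identity genes 1 rose and 1 fell, with sums of 304 to 676 CPM after LPS and 241 to 313 CPM after saline. Of 8 blood endothelial genes tested 6 rose, with sums over all 10 on the list of 14.6 to 83.2 CPM after LPS and 3.51 to 11.6 CPM after saline. Of 5 lymphatic endothelial genes tested, Lyve1 among them, 1 rose. Flt4, a receptor of lymphatic endothelium, had 0.561 to 3.77 CPM after LPS and 0 to 0.244 CPM after saline, Prox1 11.8 to 33.2 CPM after LPS and 10.2 to 27.5 CPM after saline, and the defining genes Ccl21a and Mmrn1 were at 0 in every astrocyte library. Of 10 neuronal genes 6 rose, with sums of 189 to 501 CPM after LPS and 118 to 186 CPM after saline. Of 3 neutrophil genes tested 2 rose, with sums over all 11 on the list of 2.57 to 25.2 CPM after LPS and 0.228 to 2.11 CPM after saline. Of 5 monocyte genes tested 2 rose and 1 fell, with sums over all 12 of 90.6 to 219 CPM after LPS and 119 to 176 CPM after saline, and Chil3 was at 0 in 1 of 6 LPS and 5 of 6 saline libraries. The monocyte gene Ccr2 was at 0 in 3 of 6 LPS and 6 of 6 saline libraries, and the platelet gene Ppbp at 0 in 6 of 6 LPS and 3 of 6 saline libraries. The part of these cells in the values of Stab1 and Cd163 was not tested. The neutrophil gene S100a8, the endothelial gene Ly6c1 and Flt4 were at most 0.0527, 0.211 and 0.244 CPM after saline. They passed the filter through their LPS libraries. Such genes had to differ, so the counts of neutrophil and endothelial genes that rose are descriptions.

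Relative to the macrophage genes in the same libraries, Stab1 amounted to 1.13% to 1.84% of the summed level of the 12 shared genes after LPS and to 0.294% to 1.48% after saline, so the ranges overlapped. Relative to Csf1r alone, a denominator chosen after its values were seen, it was 7.39% to 15.2% after LPS and 1.10% to 5.25% after saline, without overlap. In microglia preparations the share of Stab1 in the summed genes was 2.06% to 2.87% after LPS and 1.90% to 2.80% after saline. Mrc1 amounted to 0.129% to 0.682% of the summed genes after LPS and to 0.513% to 3.78% after saline in astrocyte preparations, and to 0.299% to 0.932% and 0.338% to 1.42% in microglia preparations.

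From the further border macrophage genes, 20 of 36 were tested in astrocyte preparations, and 8 were called higher and 1 lower after LPS, averaged over genotypes. Ifitm3 rose by 5.17, Cp by 4.71, Ifitm2 by 2.61 and Tgfbi by 2.31 on the log2 scale, and Ednrb, the endothelin receptor that astrocytes also carry, fell by 0.82. Ednrb was not among the genes named for microglia and was chosen after its values were seen. The other 4 called genes were at or near 0 after saline and passed the filter through their LPS libraries, so they had to differ and are given as levels. Siglec1 had 1.04 to 4.73 CPM after LPS and 0 to 0.594 CPM after saline, and Ms4a6c 0.824 to 7.69 CPM after LPS and 0 to 0.324 CPM after saline. Ms4a6d had 1.56 to 11.1 CPM after LPS and 0 to 0.422 CPM after saline, and Wfdc17 0.247 to 8.4996 CPM after LPS and 0 to 0.143 CPM after saline. For all 4 genes the LPS libraries lay above the saline libraries. Folr2 was at 0 in 2 of 6 LPS and 5 of 6 saline libraries. Loss of Serpine2 moved no member past the test in astrocyte preparations either: 0 of 7 passed within saline, within LPS or averaged over injections, where 0.0055% of genes did each time, and 1, 0 and 0 members had an unadjusted p under 0.05, beside 500, 497 and 540 genes. The log2 differences, knockout minus control, ran from -1.65 to 4.30, and the intervals from -4.30 to 8.28, with standard errors from 0.45 for Stab1 averaged over injections to 1.87 for Cd163 in saline. The interval that left out 0 was that of Cd163 in saline, which rests on 7 counts in 3 knockout libraries and 0 in controls. The genotype difference in the LPS response passed for 0 of 7 members and for 0% of genes, with 0 members and 474 genes at an unadjusted p under 0.05.

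The LPS response of Stab1 differed between the cell types, and Cd163 and Lyve1 were also called, on few astrocyte counts. The microglial minus the astrocytic log2 fold change, averaged over genotypes in the fit of all 24 libraries, was -4.62 ± 1.06 (SE; edgeR adjusted p = 0.0161) for Cd163, -2.36 ± 0.51 (edgeR adjusted p = 0.0100) for Stab1 and -3.44 ± 0.92 (edgeR adjusted p = 0.0414) for Lyve1. These 3 of 8 members were called where 2.6% of 24607 genes were, 1.78% of them in this direction. In each case the astrocytic value was the higher one. The median difference was -0.24 over the members and -0.03 over all genes. The call of Lyve1 was lost with sex as a covariate (edgeR adjusted p = 0.115) and without any of 16 single libraries, among them microglia saline knockout replicate 1 (0.120) and astrocyte LPS control replicate 1 (0.0964). Those of Cd163 and Stab1 held without any single library. Over the astrocyte saline knockouts and controls, Cd163 had 7 and 0 counts and Lyve1 11 and 7. The size of the differences of Cd163 and Lyve1 depends on the prior count because of these low values. Their calls, the count of 3 and the median difference are therefore descriptions.

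**Figure D5:**
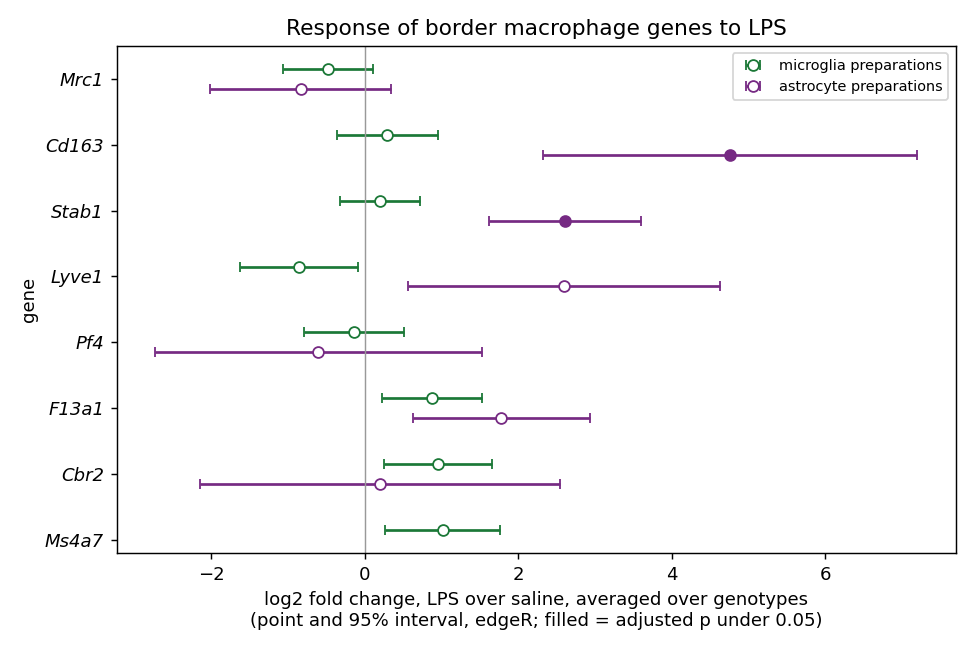
Log2 fold change, LPS over saline and averaged over genotypes, with its 95% interval from edgeR for each gene, microglia above astrocytes, filled where the adjusted p is under 0.05. Only Stab1 at 2.604 and Cd163 at 4.76 in astrocyte preparations are filled, and the microglia intervals are the narrower ones for all 7 genes tested in both.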

How the data were processed

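Gene counts were analysed as deposited, as whole-number read counts per Ensembl gene, 1 table per library. STAR 2.6.0c, an aligner, and HTSeq, a read counter, are listed in the submitters' processing notes, as are the builds GRCm38 and GRCm39, without a role. The cell types carry different sets of identifiers, and which build made which table is not given in the sources used here. Rows of reads assigned to no gene (56.2% to 72.7% no-feature reads in microglia and 15.9% to 21.1% in astrocytes) were left out of library sizes. Symbols came from the reference annotation.

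Within each cell type the 12 libraries were fitted together with edgeR 4.0.16 (R 4.3.3, limma 3.58.1): TMM scaling, a filter on low counts (minimum count 10, minimum total 15), robust quasi-likelihood tests and Benjamini-Hochberg adjustment over all 22230 or 18188 genes, with an adjusted p of 0.05 as the threshold. Ms4a7 did not pass the filter in astrocytes. Cell types were compared in a fit of all 24 libraries over 52404 shared identifiers, of which 24607 genes were tested. The fits were also run on simulated counts with the same spread set for all genes and both cell types. No result given here rests on that run. Alternatives were RLE and upper quartile scaling, DESeq2 1.42.0, no filter or a minimum count of 50, sex as covariate, a replicate block, only the groups compared, and leaving out each library. Figures used Python 3.11.15, pandas 2.3.3 and matplotlib 3.10.9.

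All members are described. The genes most like them were the 5 with the highest Pearson correlation with the members' mean log2 CPM among genes averaging at least 5 CPM, without predicted genes. Further border macrophage genes were named where they passed the LPS test averaged over genotypes in microglia. The members and lists were chosen with earlier results of these data known. Deviations from group means of same-numbered knockout and control libraries correlated over 0.1 in every pair only in astrocyte LPS samples (0.30, 0.16 and 0.35). Single same-numbered pairs reached 0.44 (microglia saline replicate 1) and 0.32 (microglia LPS replicate 3). Microglia LPS knockout 1 and control 2 reached 0.38, so the numbers are not shown to be pairs. The tests as specified used no pairing, and blocks were fitted only as alternatives. The labels do not say that libraries of a group came from separate animals, so p-values measure the spread between these libraries. Counting intervals and floors cover counting error only.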

Additional observations from a re-analysis of the deposited data

Results flagged for a closer look

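The LPS response was called different between microglia and astrocyte preparations for 3 of the 8 genes. The test was of the difference itself, in the fit of all 24 libraries. The microglial minus the astrocytic log2 fold change was -4.62 for Cd163, -3.44 for Lyve1 and -2.36 for Stab1. Over all genes 2.6% were called, 1.78% in this direction. The call of Lyve1 was lost with sex as a covariate (edgeR adjusted p = 0.115) and without any 1 of 16 single libraries. Cell type, brain region and preparation cannot be told apart in these differences. Cd163 and Lyve1 rest on 88 and 149 counts over the 12 astrocyte libraries, so their calls and the count of 3 are descriptions.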

How the results depend on the processing

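Over 2159 values of a gene in a comparison under an alternative, 2108 kept their side of the threshold, 23 lost a call, 28 gained one and 0 called values reversed; 138 values that were not called changed sign. The 64 group levels moved by less than 1 SD when scaled by raw totals. The replicate block changed no knockout call, with 0 members called in either cell type. In microglia LPS comparisons, no filter on low counts gave 1 called member in knockouts (F13a1) and 3 averaged over genotypes, against 0 and 0, and leaving out single libraries gave 0 to 1 averaged. In astrocytes within knockouts, DESeq2, no filter and a minimum count of 50 each gave 1, and leaving out single libraries 0 to 1, against 0. Within controls, DESeq2 and no filter gave 2, and the replicate block and the fit of only the groups compared gave 1, against 0. Averaged over genotypes, against 2 called, DESeq2 gave 4 (Lyve1 and F13a1 added), a minimum count of 50 gave 1, leaving out both LPS replicates numbered 2 (chosen after seeing the data) gave 1, the replicate block and no filter gave 3 (Lyve1 added), and leaving out single libraries 1 to 3. The cause of these moves was not tested. Stab1 was called there under every alternative, and Cd163 was not. Lyve1 and Cd163 passed the low count filter there only through their LPS libraries, so their calls under it are descriptions. In astrocyte preparations 5 members had libraries with 0 counts, and in microglia none did.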

Other observations

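In microglia preparations Stab1 relative to Csf1r was also separated by injection, at 10.1% to 13.2% in LPS knockouts and 8.28% to 10.0% in LPS controls, against 6.71% to 7.85% in saline knockouts and 5.72% to 8.25% in saline controls. This ratio was chosen after its values were seen and is a description. Among other blood cell lists in the same preparations, 4 of 5 erythrocyte genes tested and 4 of 11 neutrophil genes fell after LPS, with erythrocyte sums of 31.1 to 41.9 CPM after LPS and 47.9 to 161 CPM after saline.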
